A study of Mus musculus with 10 samples.

Results

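The transcripts described are those of the adult hemoglobin chains and of the red cell line, counted in mouse ovaries as a measure of the blood that each ovary held. The genes are Hba-a1 and Hba-a2, which encode the alpha chain, Hbb-bs and Hbb-bt, which encode the beta chain, Alas2, which encodes the first enzyme of heme synthesis in erythroid cells, and Slc4a1, which encodes band 3, the anion exchanger of the red cell membrane. They were chosen by name, and all 6 were found among the 55487 genes of the count table. The 10 libraries were made from ovaries of mice that the labels place on a C57BL/6J background, with 4 Control samples from mice aged 8 weeks, 3 Aged samples and 3 Aged+CF samples. How many ovaries or mice went into a sample is not given in the sources used here, and each sample is called an ovary. The age of the last 2 groups is 11 months in the labels and 10 months in the methods of the study. Aged+CF mice received 200 μL of cell-free fat extract (CEFFE, the liquid protein extract of washed and emulsified adipose tissue) at 3 μg/μL into the tail vein every 2 days for 2 weeks, while Control and Aged mice received saline. By the labels, all mice were also given 10 IU of PMSG, the gonadotropin that drives follicle growth, 48 h before the ovaries were taken. The sources used here do not mention perfusion of the mice, and the ovaries were washed in PBS.

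A red cell carries oxygen on hemoglobin, a tetramer of alpha and beta chains that each hold a heme. Mouse red cells lose their nucleus before they enter the blood. Young red cells, the reticulocytes, still carry globin and Alas2 mRNA for a short time, and mature red cells keep little RNA. Most erythroid genes are transcribed in the precursors of the bone marrow and spleen, under GATA1, KLF1 and their partners. An ovary is a vascular organ, and its vessels are remodelled in every cycle as follicles grow and corpora lutea form.

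The copies of each chain are nearly identical, so the sequences at which they differ are shown first. In the GENCODE transcripts, the coding sequences of Hba-a1 and Hba-a2 are both 429 bases long and differ at 1 base, C381T, counted from 1 at the start codon with the base of Hba-a1 first. Those of Hbb-bs and Hbb-bt are 444 bases long and differ at 1 base, C417T, with the base of Hbb-bs first. The differing base is in capitals, with 15 bases on each side.
Hba-a1: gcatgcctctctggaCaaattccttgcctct
Hba-a2: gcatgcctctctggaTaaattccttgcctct
Hbb-bs: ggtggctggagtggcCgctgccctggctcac
Hbb-bt: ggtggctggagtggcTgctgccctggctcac
Neither difference changes the encoded chain. How the authors' counting treated reads that match both copies is not given in the sources used here, so the split between the copies of a chain is uncertain and each pair was also tested as a sum. Between Hba-a1 and Hbb-bt, an alpha and a beta gene, 57.8% of the aligned coding positions are identical.

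The sequences before the start sites are shown as a description of the genes, and their relation to the levels in the ovaries was not tested. RefSeq promoters on GRCm38.p6 were found for 5 of the 6 genes, without Slc4a1. In capitals are the letters TATAA and CCAAT on the given strand, CACCC on either strand, which reads GGGTG on the other, and the GATA sequences AGATAA or TGATAA, or with G as the last letter AGATAG or TGATAG, also on either strand.
Hba-a2, chr11:32296372-32296491, plus strand: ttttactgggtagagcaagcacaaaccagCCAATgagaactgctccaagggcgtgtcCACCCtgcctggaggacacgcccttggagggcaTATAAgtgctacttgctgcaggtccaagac
Hbb-bt, chr7:103813967-103814086, minus strand: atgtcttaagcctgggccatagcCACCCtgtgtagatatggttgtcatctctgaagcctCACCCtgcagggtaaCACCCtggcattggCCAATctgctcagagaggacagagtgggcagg
Alas2, chrX:150547285-150547404, plus strand: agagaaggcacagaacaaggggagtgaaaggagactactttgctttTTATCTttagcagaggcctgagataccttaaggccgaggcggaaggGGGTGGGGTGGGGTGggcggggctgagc
The 250 bases before the start of Hba-a1 and Hba-a2 share an unbroken run of 247 identical bases, so that of Hba-a1 is not repeated. Those of Hbb-bs and Hbb-bt are identical at 69.3% of aligned positions, and both hold CACCC followed by CCAAT. The pieces below lie before the RefSeq start. By the GENCODE positions, all 30 bases of the Hbb-bs piece and 14 bases of the Hbb-bt piece lie inside the gene.
Hbb-bs, chr7:103827989-103828018, minus strand: CACCCtggtaagggCCAATctgctcacaca
Hbb-bt, chr7:103813983-103814012, minus strand: CACCCtggcattggCCAATctgctcagaga
All 4 hemoglobin genes held TATAA between 27 and 30 bases before the RefSeq start, CCAAT between 75 and 91 bases before it, and CACCC. Of all 32851 RefSeq promoters, read over the same 250 bases, 5255 held the first of these motifs, 19.1% the second and 52.0% the third. A GATA sequence, held by 26.5% of promoters, was found in Hba-a1, Hba-a2, Hbb-bs and Alas2, and these letters were not in the window of Hbb-bt. Alas2 held the third motif at 40, 35 and 30 bases before the start, on the other strand, and did not hold the second. These matches describe the letters of the windows, and binding was not measured.

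Depth was similar in the 3 groups, at 15761789 to 21318254 counted reads for an ovary and group medians between 17306694 (Aged) and 17450630 (Aged+CF). All 14 markers of ovarian cells on the list used had reads, from Foxl2 of granulosa cells to Zp3 of oocytes. Reads of 6 genes of the oviduct and its ciliated cells, which are Ovgp1, Foxj1, Sec14l3, Tekt1, Dynlrb2 and Ccdc153 and were chosen after their values were seen, summed to 377 CPM in Control 33 and 309 CPM in Aged 34. In the other 8 ovaries the sum was between 1.62 and 31.5 CPM. For these oviduct reads, each comparison below is given without Control 33 and Aged 34 as well. Ovary Aged 34 also had the lowest hemoglobin of the Aged group. Leaving it out raises the Aged mean whatever its oviduct reads, so calls gained without it are not separate evidence of a difference. Levels are in CPM, which are counts divided by the library size after TMM scaling in edgeR, and group values are the mean ± SD.

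The 4 hemoglobin genes together were low in every Control ovary, high in every Aged ovary and spread between them in Aged+CF. Their sum was 79.4, 110, 87.1 and 70.6 CPM in Control ovaries 31, 32, 33 and 34. In Aged ovaries 31, 33 and 34 it was 414, 632 and 263 CPM, and in Aged+CF ovaries 30, 32 and 34 it was 142, 107 and 257 CPM. The lowest Aged ovary thus lay above the highest Control ovary, Aged+CF 32 lay inside the Control range, and Aged+CF 34 came to just below the lowest Aged ovary. The mean was 86.8 ± 16.9 CPM over Control ovaries (n = 4), 436 ± 185 CPM over Aged ovaries (n = 3) and 169 ± 78.8 CPM over Aged+CF ovaries (n = 3). The ratio of the means was 5.03 for Aged over Control, 2.59 for Aged over Aged+CF and 1.94 for Aged+CF over Control. As a share of all counted reads, hemoglobin took 0.00896 ± 0.00167% in Control, 0.0404 ± 0.0143% with age and 0.0170 ± 0.00784% with age and CEFFE. Within a whole ovary, more red cells and more globin mRNA per red cell cannot be told apart.

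Hba-a1 (ENSMUSG00000069919, GRCm38 chr11:32283511-32284465, plus strand) was the alpha gene with more reads. Its level in Control ovaries 31 to 34 was 35.6, 51.9, 39.0 and 30.9 CPM. In Aged ovaries 31, 33 and 34 it was 182, 277 and 117 CPM, and in Aged+CF ovaries 30, 32 and 34 it was 66.0, 47.4 and 115 CPM. All 3 Aged ovaries were above all 4 Control ovaries, and the highest Aged+CF ovary reached 2445 reads against 2121 in the lowest Aged ovary, in a library with more reads in all. Hba-a2 (ENSMUSG00000069917, chr11:32296489-32297298, plus strand) had fewer reads and the same order of groups. It stood at 5.08, 7.67, 5.68 and 3.92 CPM in Control, 27.6, 36.2 and 16.4 CPM in Aged, and 8.54, 5.0 and 13.1 CPM in Aged+CF, in the same order of ovaries. Aged+CF overlapped Control for both alpha genes and did not overlap Aged.

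Hbb-bs (ENSMUSG00000052305, chr7:103826534-103828096, minus strand) is, with Hbb-bt, one of the pair of adult beta genes of the C57BL/6J haplotype. It stood at 15.6, 21.3, 16.1 and 14.5 CPM in Control, 83.3, 132 and 58.1 CPM in Aged, and 26.4, 23.0 and 49.0 CPM in Aged+CF. Its 3 groups did not overlap, with every Aged+CF ovary above Control and below Aged. Hbb-bt (ENSMUSG00000073940, chr7:103812524-103813996, minus strand) had 23.1, 29.2, 26.2 and 21.4 CPM in Control, 121, 187 and 71.5 CPM in Aged, and 40.8, 31.1 and 80.5 CPM in Aged+CF. For this gene Aged+CF 34 was above Aged 34, so Aged+CF overlapped Aged and not Control.

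Alas2 (ENSMUSG00000025270, chrX:150547375-150570638, plus strand) makes aminolevulinic acid for heme in red cell precursors. It was at 19 to 30 reads in the Control ovaries, 44 to 84 in the Aged ovaries and 40 to 62 in the Aged+CF ovaries. That is 1.11, 1.87, 1.42 and 1.17 CPM in Control, 4.18, 5.93 and 2.43 CPM in Aged, and 2.87, 2.30 and 2.91 CPM in Aged+CF. Aged and Aged+CF both lay above Control, and the Aged+CF ovaries fell inside or just below the lower part of the Aged range. Alas2 overlaps Apex2 and Mir3620 on the opposite strand, and the strand setting of the counting is not given in the sources used here, so reads of Apex2 in the overlap could not be told apart from those of Alas2.

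Slc4a1 (ENSMUSG00000006574, chr11:102348824-102366203, minus strand) was at or under the limit of detection. It had 0 reads in 8 ovaries, 3 reads in Aged 34 and 1 read in Aged+CF 30. A count of 0 allows up to 3 reads, which is 0.141 to 0.190 CPM of the counted reads depending on the ovary, and such limits cover counting error only. The gene did not pass the filter on low counts, and no fold change is given.

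**Figure D1:**
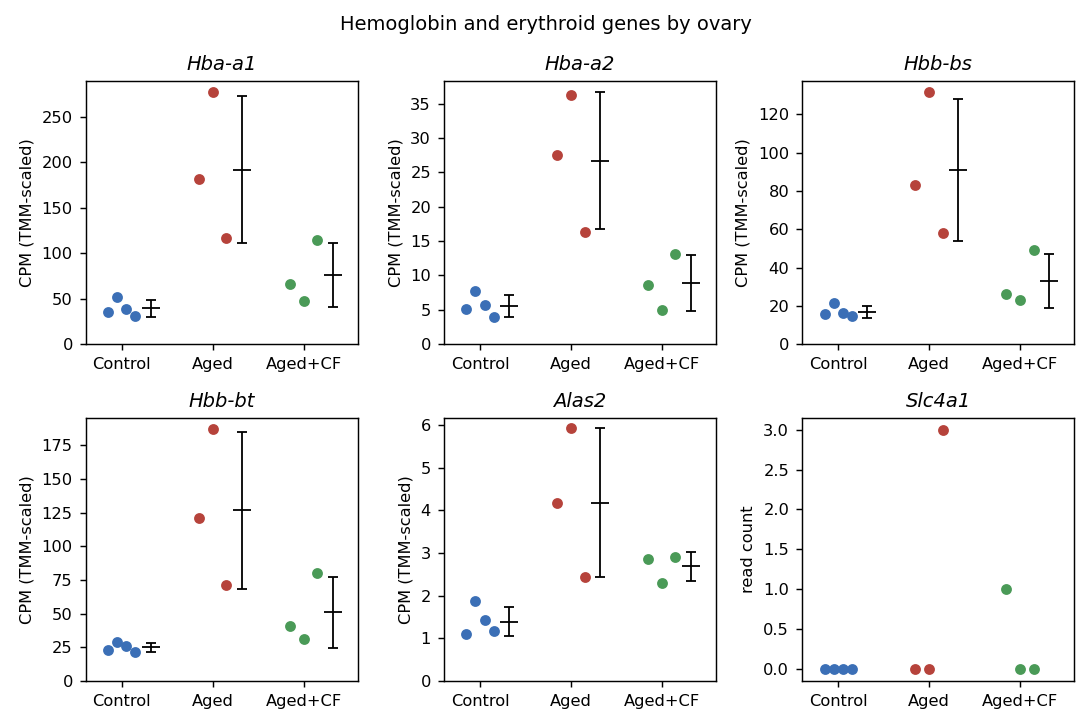
Level of each of the 6 genes in each ovary, with 1 point per ovary, in CPM scaled by TMM (for Slc4a1, the read count). The bar beside each group is its mean ± SD, not drawn for Slc4a1. For the 4 hemoglobin genes and Alas2 the 3 Aged ovaries lie above the 4 Control ovaries, while Slc4a1 reaches 3 reads at most.

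Compared per length of transcript, in FPKM, Hbb-bt and Hba-a1 were the highest and overlapped each other in every group. In Control they were at 36.7 ± 4.93 and 34.04 ± 7.48 FPKM, followed by Hbb-bs at 12.6 ± 2.12, Hba-a2 at 5.50 ± 1.50 and Alas2 at 0.449 ± 0.108 FPKM. In Aged the order was the same, from 167 ± 64.9 FPKM for Hbb-bt and 149 ± 52.0 for Hba-a1 to 61.2 ± 20.6 for Hbb-bs, 23.7 ± 7.37 for Hba-a2 and 1.21 ± 0.429 for Alas2. In Aged+CF it was 72.7 ± 37.0, 64.2 ± 29.0, 23.9 ± 10.2, 8.55 ± 3.89 and 0.849 ± 0.114 FPKM. From Hba-a1 to Hbb-bs, from Hbb-bs to Hba-a2 and from Hba-a2 to Alas2 the ranges of neighbours did not overlap within a group. The order depends on the gene lengths behind the FPKM, which were 1193 bases for Hba-a1 and 703 for Hbb-bt, where the GENCODE transcripts have 699 and 703 bases.

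Aged vs Control asks how hemoglobin in the ovary differed with age. All 4 hemoglobin genes rose, by 4.78-fold to 5.39-fold, and Alas2 rose less, by 2.99-fold. In edgeR's quasi-likelihood test, the log2 fold change of Hbb-bs was 2.43 (SE 0.32, adjusted p = 0.00448) and that of Hbb-bt was 2.34 (SE 0.36, adjusted p = 0.00589). For the alpha genes it was 2.29 for Hba-a1 (SE 0.34, adjusted p = 0.00559) and 2.26 for Hba-a2 (SE 0.36, adjusted p = 0.00686). Alas2 was higher by a log2 fold change of 1.58 (SE 0.32, adjusted p = 0.0136). All 5 genes tested thus passed both thresholds, a fold change of at least 1.5 and an adjusted p under 0.05, as did 11.1% of the 18956 genes tested, or 5% in the upward and 6.06% in the downward direction. All 5 also had no overlap between the groups with Aged higher, as had 11.8% of the genes tested. Over the 5 genes the median was 2.29 on the log2 scale, where over all 18956 it was -0.00053. Summing the copies of a chain gave 2.28 for alpha (SE 0.35, adjusted p = 0.00564) and 2.38 for beta (SE 0.34, adjusted p = 0.00516) in the same test. Without Control 33 and Aged 34 the 5 log2 fold changes were between 1.91 and 2.69 and all 5 were called higher, as were 7.82% of genes in that fit.

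Aged+CF vs Aged asks whether hemoglobin in aged ovaries differed with the extract. The levels were lower in Aged+CF, and none of the 5 genes passed the adjusted threshold. In the quasi-likelihood test, the log2 fold change was -1.58 for Hba-a2 (SE 0.39, adjusted p = 0.161) and -1.47 for Hbb-bs (SE 0.34, adjusted p = 0.161). It was -1.33 for Hba-a1 (SE 0.37, adjusted p = 0.175), -1.32 for Hbb-bt (SE 0.39, adjusted p = 0.182) and -0.63 for Alas2 (SE 0.34, adjusted p = 0.381). At adjusted p, 0 of 5 genes were called beside 0.00528% of all genes, which is 1 gene. Across all genes 3096 had an unadjusted p under 0.05. At unadjusted p and the same fold change, the 4 hemoglobin genes were lower, as were 4.05% of all genes. The groups did not overlap for Hba-a1, Hba-a2 and Hbb-bs, with Aged+CF lower, as for 8.39% of all genes, and for Hba-a1 the gap was between 115 and 117 CPM. The DESeq2 Wald test called the same 4 hemoglobin genes at adjusted p, where it called 1.21% of all genes lower. In edgeR at adjusted p, the calls changed with Aged 34, which like Control 33 had many reads of oviduct genes. Without Aged 34 the 4 hemoglobin genes were called by edgeR (adjusted p between 0.0291 and 0.0435), beside 2.16% of all genes called lower in that fit. Without both Aged 34 and Control 33 the folds were nearly those without Aged 34 alone, and Hbb-bs was called (log2 fold change -1.73, adjusted p = 0.0469), beside 1.27% of all genes called lower. Hba-a1, Hba-a2 and Hbb-bt, at -1.61, -1.85 and -1.62, just missed the threshold in that fit (edgeR adjusted p between 0.0538 and 0.0642). Without Aged 33, the Aged ovary with the highest hemoglobin, the log2 fold changes were instead smaller in size than with all ovaries. They were -0.98 for Hba-a1, -1.31 for Hba-a2, -1.11 for Hbb-bs, -0.93 for Hbb-bt and -0.30 for Alas2. In that fit 0 of 5 genes were called (edgeR adjusted p between 0.242 and 0.710).

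In Aged+CF vs Control, the 5 genes stood between 1.60-fold and 2.04-fold higher in Aged+CF on the fitted scale, and 0 of 5 were called at adjusted p, where 0.179% of all genes were called, or 0.137% upward. In edgeR's test, the log2 fold change was 1.03 for Hbb-bt (SE 0.36, adjusted p = 0.246), 0.96 for Hbb-bs (SE 0.31, adjusted p = 0.223), 0.95 for Hba-a1 (SE 0.34, adjusted p = 0.256), 0.95 for Alas2 (SE 0.32, adjusted p = 0.239) and 0.67 for Hba-a2 (SE 0.36, adjusted p = 0.422). At unadjusted p, 4 of the 5 were higher, all but Hba-a2, beside 3.33% of all genes, and 2712 of all genes had an unadjusted p under 0.05. Hbb-bs, Hbb-bt and Alas2 had no overlap with Aged+CF higher, as had 9.69% of all genes. Without Control 33 and Aged 34 the log2 fold changes were between 0.71 and 1.07 and 0 of 5 were called, beside 0.377% of all genes called higher. Ovary Aged+CF 34 carried much of the difference, since without it the log2 fold changes were 0.56 for Hba-a1, 0.30 for Hba-a2, 0.58 for Hbb-bs and 0.55 for Hbb-bt, and 0.92 for Alas2. The 3 comparisons share their groups, so the values of Aged+CF against Aged and against Control are not independent of Aged vs Control.

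**Figure D2:**
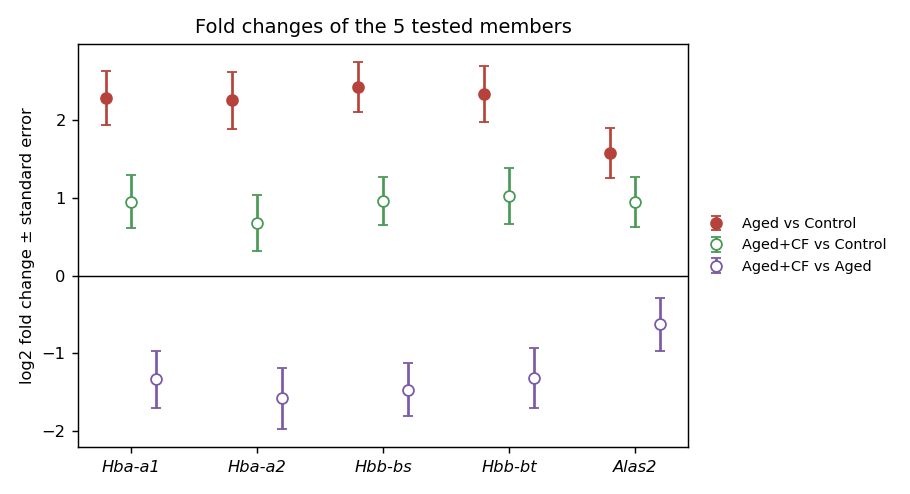
Log2 fold change (vertical axis) of the 5 tested genes in the 3 comparisons, with bars of ± 1 standard error from edgeR's quasi-likelihood fit. Filled points passed a fold change of 1.5 and adjusted p under 0.05. In Aged vs Control all 5 points are filled, at 1.58 to 2.43, and in both comparisons with Aged+CF the points are open.

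Alpha and beta reads kept a ratio near 1 while their levels differed between ovaries. The ratio of alpha to beta reads was between 0.968 and 1.18 in all 10 ovaries, with a mean of 1.06 ± 0.0860 for Control, 1.01 ± 0.0255 for Aged and 1.02 ± 0.0777 for Aged+CF, so the ranges of the 3 groups overlapped. This ratio of reads is not corrected for gene length. In FPKM, which rest on the gene lengths named above, the ratio of alpha to beta was between 0.724 and 0.891 in the 10 ovaries. Hba-a1 took 86.8 to 90.5% of the alpha reads and Hbb-bt took 55.2 to 62.2% of the beta reads. The Hba-a1 share was 87.7 ± 0.722% for Control, 87.7 ± 0.800% for Aged and 89.6 ± 0.970% for Aged+CF. The Hbb-bt share was 59.8 ± 1.65%, 57.7 ± 2.23% and 60.1 ± 2.40% in the same order. These shares rest on how the counting split reads between near-identical copies, as above.

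The fitted rise of Alas2 in Aged was smaller than that of the hemoglobin genes, and the difference between them was not tested. Of 1000 reads of Alas2 and the 4 hemoglobin genes together, Alas2 took 13.8, 16.7, 16.05 and 16.2 in Control ovaries 31 to 34, with a mean of 15.7 ± 1.31. It took 9.99, 9.29 and 9.15 in Aged ovaries 31, 33 and 34, with a mean of 9.47 ± 0.449. In Aged+CF ovaries 30, 32 and 34 it took 19.8, 21.1 and 11.2, with a mean of 17.4 ± 5.40. All 3 Aged ovaries were lower than all other ovaries. The exact 95% binomial interval, which covers counting error only, was 11.3 to 23.8 in Control 32 and 7.79 to 12.6 in Aged 31, so that with 19 to 84 Alas2 reads the intervals of single ovaries overlapped in part. The hemoglobin reads are part of the share's denominator, so an ovary with much hemoglobin has a low share wherever Alas2 differs less. No test was made of this share, since it was built after the levels were known. Reads of Apex2 in the overlap could not be told apart and may be part of the Alas2 reads.

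**Figure D3:**
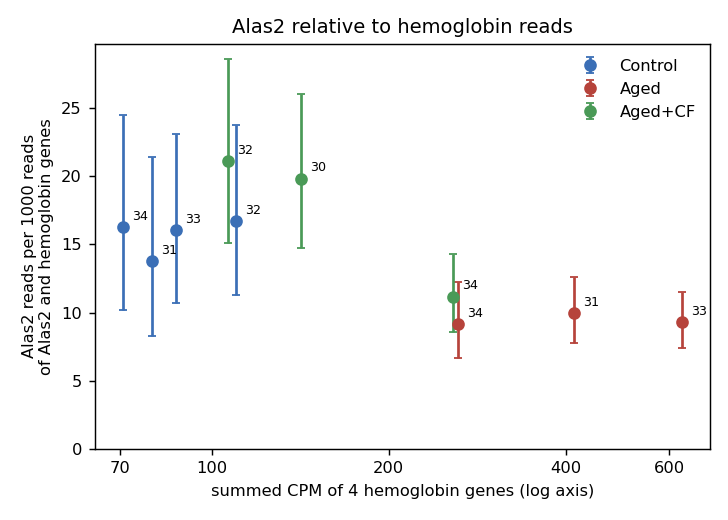
Alas2 reads per 1000 reads of Alas2 and the 4 hemoglobin genes (vertical axis) against the summed CPM of the hemoglobin genes (horizontal axis, log scale), with 1 labelled point per ovary and exact 95% binomial intervals. The 3 Aged ovaries lie at 9.15 to 9.99 and the 4 Control ovaries at 13.8 to 16.7, and the horizontal value is part of the denominator of the vertical one.

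Across the 10 ovaries, the hemoglobin genes followed each other within groups as well as between them. Of 15 pairs of the 6 genes, the 6 pairs of hemoglobin genes had a Pearson r of log2 CPM between 0.979 and 0.996 and a Spearman rho between 0.915 and 0.988 (n = 10, two-sided permutation test, largest p adjusted over the 15 pairs 8.57e-05 for r and 0.00075 for rho). Without the 2 ovaries farthest from the median, r was between 0.942 and 0.990. After each group's mean was taken out, r was between 0.928 and 0.984, with no test made. The permutations ran over all 10 ovaries without regard to group, so their p-values also take in the differences between groups. For Alas2 with the 4 hemoglobin genes, r was between 0.902 and 0.939 and rho between 0.867 and 0.976 (n = 10, permutation test, largest adjusted p 0.00048 and 0.00334), r was between 0.742 and 0.841 without the 2 farthest ovaries, and it was between 0.802 and 0.843 with group means taken out. Values of an ovary come from the same library and depth, and near-identical copies may share reads. The 5 pairs with Slc4a1 rest on 4 reads and are not read.

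The genes outside the 6 whose log2 CPM most resembled the log2 of the hemoglobin sum over the 10 ovaries were Mmut (r = 0.973), Cyp20a1 (0.956), E330017L17Rik (0.956), Gm21399 (0.954), Hhex (0.954), Ide (0.950), Dazap2 (0.945) and A830035O19Rik (0.943), of 16739 genes with a mean of at least 1 CPM. Each of the 4 hemoglobin genes resembled the sum that it is part of more closely, and Alas2 (r = 0.935) would have ranked 12 in this order. Mmut, a mitochondrial enzyme of propionate breakdown, was at 64.1 ± 2.48 CPM in Control, 93.6 ± 13.1 CPM in Aged and 71.4 ± 4.27 CPM in Aged+CF ovaries. Hhex, a transcription factor of blood and endothelial development, was at 7.53 ± 0.658, 12.2 ± 2.21 and 10.1 ± 1.59 CPM. Their log2 fold changes in Aged vs Control were 0.55 and 0.70, smaller than those of the hemoglobin genes. With 10 ovaries in 3 groups, many genes that differ between the groups resemble the sum, and the ranking is a description.

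Other genes of red cells were read from lists, beside the 5% of all genes that were called higher and the 6.06% called lower in Aged vs Control. Of the embryonic globins, Hbb-bh1 had 0 reads in all 10 ovaries, Hbb-y had at most 3 reads in an ovary and Hba-x at most 1. Of 11 other globin genes in the table only Cygb, which is made in fibroblasts, and Ngb were tested, and neither was called. Control ovaries had 162 ± 13.1 CPM of Cygb, Aged ovaries 190 ± 33.1 and Aged+CF ovaries 192 ± 13.7. All 12 further heme synthesis genes were tested in Aged vs Control and none was called, with a median log2 fold change of 0.15. A count of 0 in 12 is near the share of all genes. Among them Alas1, the form of the enzyme found in most tissues, was at 170 ± 141 CPM, 172 ± 73.0 CPM and 95.9 ± 21.3 CPM (Control, then Aged, then Aged+CF), and Fech, which puts iron into heme, was at 67.1 ± 9.02, 79.8 ± 5.44 and 72.7 ± 3.36 CPM.

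Of 16 red cell membrane genes, 13 were tested with a median log2 fold change of -0.18, and in Aged vs Control 0 were higher and 1 was lower, a share near the 6.06% of all genes. That gene was Rhd, the Rh blood group protein, with a log2 fold change of -2.18 (SE 0.47, edgeR adjusted p = 0.0167) at 2.30 ± 0.537 CPM in Control and 0.513 ± 0.314 in Aged. Rhag, the partner of Rhd in the membrane, had at most 1 read in an ovary. Tmod1, which caps actin in the membrane skeleton, was at 4.94 ± 0.964 CPM in Control and 10.2 ± 5.71 in Aged, and passed at unadjusted p alone (log2 fold change 1.05, SE 0.37, edgeR adjusted p = 0.0831). Aqp1 and Epb41, the most abundant of the list, were not called. Aqp1, a water channel of red cells and vessels, was at 67.0 ± 6.85, 77.5 ± 23.6 and 63.7 ± 3.69 CPM by group, and Epb41, a protein of the membrane skeleton, at 44.4 ± 1.88, 37.8 ± 1.91 and 48.3 ± 10.6 CPM. Of 16 maturation and enzyme genes in the table, 11 were tested with a median of 0.03 on the same scale, 0 were higher and 1 was lower, again near the share of all genes. The lower gene was Bpgm, which makes 2,3-bisphosphoglycerate, with a log2 fold change of -0.70 (SE 0.16, edgeR adjusted p = 0.0190). Prdx2, an abundant peroxiredoxin of red cells that many tissues express, was at 293 ± 12.2, 410 ± 165 and 322 ± 13.4 CPM in the same order of groups, and was not called. Hemgn, which is restricted to blood-forming cells, had at most 2 reads in an ovary.

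Of 11 erythroid regulators and receptors, 10 were tested with a median of 0.21, 2 were higher and 1 was lower in Aged, beside 5% and 6.06% of all genes. Nfe2, which drives globin genes and platelet formation, was higher by a log2 fold change of 2.96 (SE 0.64, edgeR adjusted p = 0.0166), with 0.373 ± 0.209 CPM in Control and 2.94 ± 2.71 in Aged. Lmo2, a bridging partner of GATA1 that endothelial cells also express, was higher by 0.61 (SE 0.18, adjusted p = 0.0426 in the same test), and Bcl11a, which represses embryonic globins, was lower by a log2 fold change of -1.68 (SE 0.25, adjusted p = 0.00559). Gata1 itself was at 8.96 ± 1.48 CPM for Control, 7.99 ± 2.45 for Aged and 7.10 ± 1.62 for Aged+CF, and Klf1 had 6 to 18 reads per ovary. Neither was called. Of 9 genes that clear hemoglobin and heme, none was called in Aged vs Control, and the median was -0.12. Of these, Hmox1, which breaks down heme, was at 157 ± 46.1, 130 ± 29.9 and 103 ± 21.1 CPM and Lrp1, a receptor for heme bound to hemopexin, at 1549 ± 66.3, 1219.6 ± 286 and 1637 ± 54.8 CPM, by group in that order. Hp, the haptoglobin that binds free hemoglobin, was at 11.4 ± 11.9 CPM in Control, 27.0 ± 4.50 CPM in Aged and 3.98 ± 0.970 CPM in Aged+CF ovaries. With age the log2 fold change of Hp was 1.24 (SE 0.67, edgeR adjusted p = 0.239). With CEFFE in aged mice it was -2.76 (SE 0.78, adjusted p = 0.177 in the same test), which passed at unadjusted p alone. In Aged+CF vs Aged and in Aged+CF vs Control, 0 genes of any of these lists were called at adjusted p, where 0.00528% and 0.179% of all genes were, so the count says little about the lists. At unadjusted p, 1 regulator was higher and 2 were lower in Aged+CF vs Aged, beside 3.91% and 4.05% of all genes. In the same comparison 1 membrane gene, Rhd, was higher and 1 clearing gene, Hp, was lower, and no other gene of these lists passed.

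Markers of other cells of the blood and of vessels were read beside hemoglobin. The summed level of 12 platelet markers was 10.9 to 16.6 CPM for Control, 10.9 to 25.8 for Aged and 15.05 to 16.5 for Aged+CF, and 5 were tested (median log2 fold change 0.41 in Aged vs Control) and 0 called. For 12 neutrophil markers it was 4.24 to 20.8, 6.49 to 33.6 and 8.73 to 10.5 CPM, and 2 were tested (median 0.88) and 0 called, with S100a8 at 2 to 9 reads per ovary and Elane at 0 reads in all. The groups overlapped for both lists. Part of the endothelial markers moved with hemoglobin in Aged vs Control. The sum of 12 was 615 to 717 CPM for Control, 910 to 1116 for Aged and 731 to 789 for Aged+CF, without overlap between any of the groups, and 6 of the 12 were called higher in Aged and 0 lower, beside 5% and 6.06% of all genes. The other 6 were not called, among them Cdh5, Cldn5 and Vwf with log2 fold changes of 0.23, 0.21 and 0.17. The largest of these changes was that of Plvap, a protein of fenestrated vessels, with a log2 fold change of 1.43 (SE 0.29, edgeR adjusted p = 0.0134), followed by Emcn at 1.09 (SE 0.18, adjusted p = 0.00772 in the same test). The median over the endothelial list was 0.58, against 2.29 for hemoglobin genes and Alas2. By staining of an endothelial protein, the study reported fewer vessels in Aged than in Control, and more in Aged+CF than in Aged. That staining was read in the medulla, while the values here are RNA of the whole ovary. Of the 14 ovarian markers, 3 were also higher in Aged, which are Star and Cyp11a1 of steroid synthesis and Lhcgr, the receptor of luteinizing hormone, and 3 were lower, the oocyte genes Gdf9, Bmp15 and Zp3 with log2 fold changes of -2.48, -2.53 and -2.84. The part of vessel or ovarian cell content in the hemoglobin result was not tested.

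**Figure D4:**
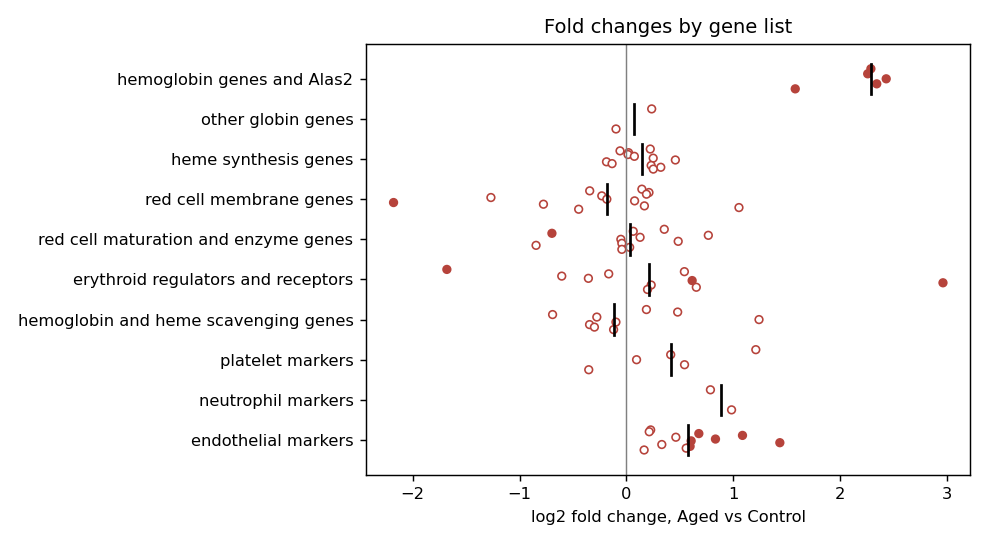
Log2 fold change in Aged vs Control (horizontal axis) of every tested gene of each list, with 1 point per gene, filled where the gene was called and open where it was not. Vertical bars are list medians, 2.29 for the hemoglobin genes with Alas2 and 0.58 for the endothelial markers.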

How the data were processed

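Gene-level read counts of 10 ovary libraries were used. Both the read counts, not normalized, and FPKM were deposited by the authors. TopHat, Cufflinks 2.1.1 and GRCm38.p4 are named in the submitters' processing notes, and the annotation, counting tool and strand setting are not given in the sources used here. The FPKM deposited by the authors equal the count divided by a fixed gene length and by the total count of the ovary, within a relative deviation of 0.000839. Positions come from GENCODE M21 (GRCm38), in which 55141 of 55487 identifiers were found. Of these 55487 genes, 18869 had no read in any ovary.

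The low-count filter of edgeR 4.0 (R 4.3) left 18956 genes, and TMM scaling followed. A quasi-likelihood model with a mean per group was fitted to all 10 ovaries together, and its F test was applied to the 3 contrasts with Benjamini-Hochberg adjustment over the genes tested. Calls needed a fold change of 1.5 or more and an adjusted p under 0.05, as in the methods of the study. The results of the study name a P value under 0.05 without stating an adjustment, and unadjusted p was an alternative here. Reported standard errors were computed from the fold change and its F value. Log2 CPM used a prior count of 2. The fit was tested on simulated data.

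The ovaries were grouped by their labels, and the numbers 30 to 34 are those of the labels. Each library was taken as a replicate. P-values measure the spread between the libraries of a group, which may be technical in part. Pairs of libraries of the same group differed by more than sampling noise. Same-numbered ovaries differ in age or treatment and so in animal, and the numbers were not used as a block in the main fit.

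The 6 genes and the lists were chosen with earlier results of these data known. Genes named from a list are those called in any comparison, up to 5 for each list and comparison, and the 2 with the highest mean CPM. Others with low reads or with a known place in the list were named after their values were seen. The 8 genes most like hemoglobin are those with the highest Pearson r. Of the lists, Hbb-b1, Hbb-b2, Ahsp and Eraf were not analysed here. Some genes of the lists are not reported here by name. Sequences are from RefSeq (GRCm38.p6) and GENCODE M21. Where a RefSeq promoter runs into the GENCODE gene, the printed window holds at most 30 bases of it. Haptoglobin, Tmod1 and the uncalled endothelial genes were also named after their values were seen. The alternatives were no filter, DESeq2's size factors, library totals without TMM, the Wald test of DESeq2 1.42, a fit of the 2 compared groups alone, a block for the replicate number, summed copies, unadjusted p, the median for shares and leaving out each ovary. Leaving out Control 33 and Aged 34 together was added after the data were seen.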

Additional observations from a re-analysis of the deposited data

How the results depend on the processing

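In Aged vs Control all 5 tested genes were called under every alternative and with every ovary left out in turn (5 to 5), except with the replicate number as a block, where 0 were called. The block lowered the calls over all genes from 11.1% to 0.422%, and the 5 adjusted p were between 0.0616 and 0.0918. The correlation of same-numbered ovaries in their deviations from the group means was 0.138, -0.185 and 0.0696 in Aged vs Control. Of 3 Aged ovaries, 1 correlated best with its own number. With so few pairs these values do not settle whether the numbers mark a shared batch, which was not tested. In Aged+CF vs Aged, 0 genes were called by edgeR, 4 with the Wald test of DESeq2, 4 at unadjusted p, 1 with Control 33 and Aged 34 left out, and 0 to 4 with each ovary left out in turn, with the 4 reached without Aged 34. In Aged+CF vs Control, 0 were called, 4 at unadjusted p, and 0 to 0 with each ovary left out in turn. The block changed no call in the comparisons with Aged+CF. The cause was not tested for any of these differences. No fold change turned its direction under any alternative run. The mean hemoglobin shares moved by less than their SD between ovaries when the median was used or an ovary was left out. Alas2 rests on 19 to 84 reads per ovary, and the depth does not resolve Slc4a1.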

Other observations

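Nnt, a mitochondrial gene that carries a deletion in C57BL/6J mice, was chosen after its values were seen. Summed over its 2 identifiers in the table, it was at 150 ± 4.80 CPM in Control (145 to 156, n = 4), 75.3 ± 3.91 CPM in Aged (70.9 to 78.3, n = 3) and 61.4 ± 11.3 CPM in Aged+CF (48.4 to 68.4, n = 3). Control did not overlap the other groups, and whether the groups share a substrain was not tested.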
